A study of Homo sapiens with 2 samples.

Results

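On the plus strand of chromosome 11, a run of RBM47 binding clusters 864 kb long was labelled by the authors as far from any gene. It was made up of all clusters labelled deep intergenic, on that strand, between positions 28680795 and 29544548 of the deposited table, whose build is hg18 by the submitters' processing notes. There were 3340 of them, out of 233546 clusters in the table and 40168 deep intergenic ones. These ends were chosen on the measured tags, since the run held more of them than any other deep intergenic stretch, so its size is given below as a description and carries no test. MDA231-BrM2a cells, a non-clonal, brain metastatic line derived from MDA-MB-231 breast cancer cells, expressed Flag-tagged wild-type RBM47 from a doxycycline-inducible promoter. They received 1 ng/ml doxycycline for 3 days and were UV-irradiated, and the 2 replicates of this single group were taken through HITS-CLIP with an antibody to Flag. The RBM47 gene itself had 395 and 1554 tags in replicates 1 and 2, in which transgene and endogenous RNA cannot be told apart. The clusters of the table held 999047 tags (unique reads) in replicate 1 and 3489697 in replicate 2. Libraries of untreated cells, of empty vector cells or of input RNA are not analysed here. The tables used here therefore hold no background per cluster, and more RNA and more binding per RNA molecule cannot be told apart.

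RBM47 carries RNA recognition motifs and takes part in pre-mRNA splicing and in mRNA stability. In HITS-CLIP, UV light joins a protein to the RNA it touches, so that each tag marks a contact and also the strand of the RNA. Transcription outside protein-coding genes is widespread in human cells. It gives rise to long noncoding RNAs, many of which stay in the nucleus, and to RNA that extends past the ends of genes. NEAT1 and MALAT1, both nuclear long noncoding RNAs, are well-known examples that also lie on chromosome 11. The deep intergenic label is taken here to mean a place outside genes and outside the flanks of 10 kb for which the table has labels of their own.

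Together the clusters of the stretch held 85121 tags by the authors' total, with 18661 tags in replicate 1 and 67511 in replicate 2. Scaled to each replicate, this was 18.7 and 19.3 per 1000 tags, or 19.01 ± 0.472 (SD, n = 2). Taken as a single locus, the stretch would have ranked at 2 among the 7698 genes with clusters. NEAT1, the scaffold of paraspeckles, had 20.5 ± 1.86 per 1000 tags (SD, n = 2), and MALAT1, a nuclear speckle RNA, had 16.3 ± 0.101. The stretch thus lay between them in both replicates, with 18.7 and 19.3 per 1000 tags against 19.2 and 21.8 in NEAT1. The distance of its mean from that of NEAT1 was smaller than the SD of NEAT1 between replicates. That distance was larger than the SD of the stretch, 0.472, and NEAT1 was the higher of them in each replicate. The way the tags were laid out differed, since MALAT1 was listed as 1 cluster of 7054 nt and NEAT1 as 5 clusters, whereas no gene had as many clusters as the 3340 of the stretch. The tags per kb of clusters were 204 in the stretch, 5648 in NEAT1 and 10316 in MALAT1.

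The stretch made up 24.3% of all clusters on chromosome 11 and 17.8% of the tags there. Of the deep intergenic clusters on that chromosome it held 85.1%, with 93.8% of their tags. Genome-wide it held 8.32% of the deep intergenic clusters. Its share of the deep intergenic tags was 14.5% in replicate 1 and 16.04% in replicate 2, a mean of 15.3% ± 1.09 (SD, n = 2).

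The surroundings of the stretch were described next. The ends lie where listed clusters on the plus strand run out, so that few clusters beyond them follow in part from how the stretch was delimited, while clusters of the minus strand were not used. Within its ends the table listed 0 clusters on the minus strand and 0 clusters with any other label. The 85121 tags of the stretch itself are on the plus strand by its definition. Summed over the genome, the other deep intergenic clusters had 51.1% of their tags on the plus strand. That sum does not show whether both strands carried clusters at any one place. On the minus strand, the nearest listed clusters were a coding sequence (CDS) cluster of KIF18A, a mitotic kinesin, 605 kb before the stretch and an intron cluster of DCDC1, 1698 kb after it. No minus strand cluster was listed over the 3166 kb between them. The table holds only clusters with at least 5 tags in all and at least 1 tag in each replicate, so weaker contacts on that strand would not be seen.

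On the plus strand, the nearest gene with clusters before the stretch was METTL15, which encodes a mitochondrial ribosomal RNA methyltransferase. Its last 3'UTR cluster, at 28311579 to 28311698 with 9 and 18 tags in replicates 1 and 2, ended 369 kb before the stretch. A further 22 clusters labelled as downstream of a gene followed, with 49 tags in replicate 1 and 193 in replicate 2, and the last of them ended 6.68 kb past METTL15. Between there and the stretch only 7 deep intergenic clusters were listed, with 5 to 8 tags each. The one nearest to the stretch, at 28510153 to 28510222, had 1 and 6 tags and lay 171 kb away. After the stretch, the next cluster on the plus strand was an intron cluster of ARL14EP, 758 kb beyond the last end, with 2 and 7 tags. The next deep intergenic cluster on this strand lay 867 kb beyond the end, with 7 and 11 tags.

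**Figure D1:**
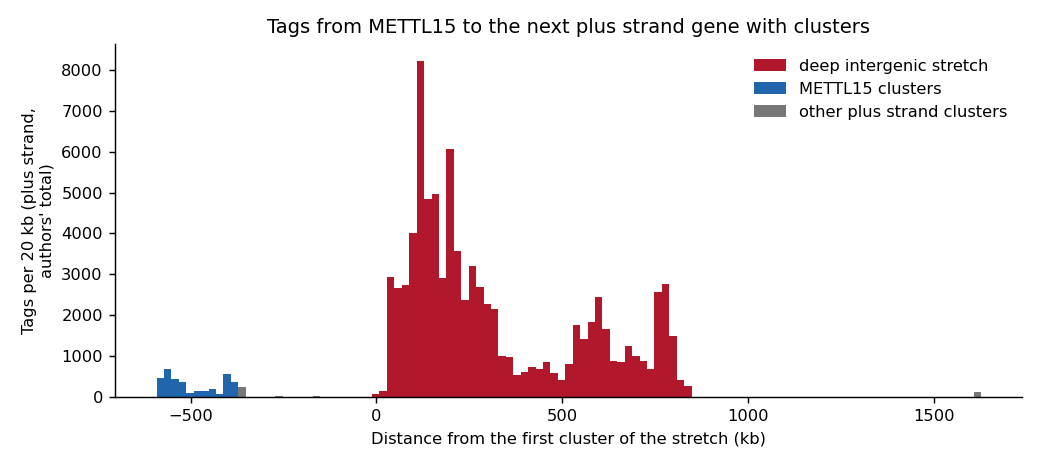
Tags on the plus strand in windows of 20 kb (authors' total), from the first METTL15 cluster to the first ARL14EP cluster, against distance from the first cluster of the stretch in kb. Red bars are the stretch, blue bars METTL15 and grey bars other plus strand clusters, among them the first ARL14EP clusters at the far right. The highest window held 8227 tags, and no cluster on the minus strand was listed in any window shown.

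METTL15 served as a scale on the same strand. Its introns had 377 clusters and 3478 tags over 219 kb, which was 15.9 tags per kb against 98.5 in the stretch, a ratio of 6.22. The introns of METTL15 were covered by clusters over 14.8% of that span, and the stretch over 48.2%. The cover of the stretch was 25.6% without replicate 2, when clusters with at least 5 tags in replicate 1 were kept. The median METTL15 intron cluster held 8 tags, and none reached 100.

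In current RefSeq (GRCh38.p14), 20 genes lie between METTL15 and ARL14EP, and none of their symbols appeared in the table. Of these, 2 are protein-coding, namely KCNA4, a voltage-gated potassium channel, and FSHB, the beta subunit of follicle-stimulating hormone. There are 8 long noncoding RNA genes, of which LINC02758, LOC105376604, LINC02742, LINC02755, LINC02546 and LINC01616 come before KCNA4. The table is on another build, so which of these, if any, the stretch meets was not determined. The nearest deep intergenic clusters on either side carried no gene symbol, and the names above are those of a current annotation. A missing symbol therefore does not show that a gene held no cluster.

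The tags were unevenly spread along the stretch. The first 31 clusters, ahead of a block that began 39.2 kb in, held 66 tags in replicate 1 and 158 in replicate 2, and the highest of them had 27. The level then rose within 10 kb. From 30 to 40 kb there were 18 and 93 tags, and from 40 to 50 kb there were 683 and 2401. The highest window of 10 kb was at 120 to 130 kb, with 1070 tags in replicate 1 and 4112 in replicate 2, or 1.12 ± 0.0759 per 1000 tags (SD, n = 2). A second high window, at 200 to 210 kb, had 756 and 2761 tags. Tags became fewer beyond 300 kb and stayed low from 350 to 500 kb. They rose again around 550 to 600 kb and 750 to 800 kb, and the fewest of any full window of 50 kb lay at 800 to 850 kb, with 276 and 846. In windows of 50 kb the level was 3.55 ± 0.192 per 1000 tags at 100 to 150 kb, 0.349 ± 0.0309 at 450 to 500 kb, 1.07 ± 0.00677 at 550 to 600 kb and 1.41 ± 0.0216 at 750 to 800 kb. These 4 levels did not overlap between replicates. Beyond the last large block, the final 67.1 kb held 305 and 992 tags.

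**Figure D2:**
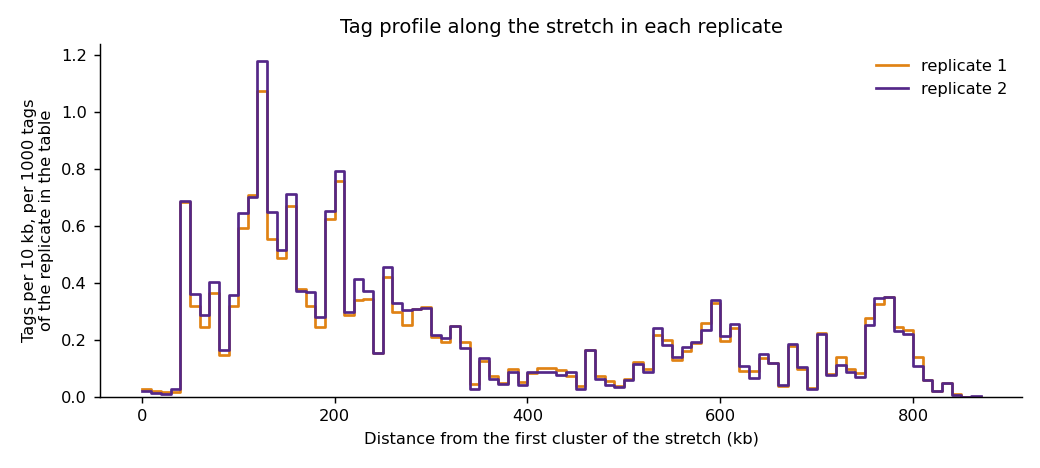
Tags per 10 kb along the stretch, per 1000 tags of the replicate in the table, against distance from the first cluster in kb, for replicate 1 (orange) and replicate 2 (purple). Both replicates peaked at 120 to 130 kb and showed the same lower rises near 600 kb and 770 kb.

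Both replicates gave this profile. Across the 86 windows of 10 kb that held a cluster, Spearman's rho between the replicates was 0.994 and Pearson's r of log2(tags + 1) was 0.993. The windows share their libraries and their cluster boundaries, so no p is given. The point by which 50% of the tags had been reached was 234 kb from the start in replicate 1 and 224 kb in replicate 2, out of 864 kb. Up to the midpoint of the stretch lay 69.7% ± 1.20 of the tags (SD, n = 2) but only 52.4% of the clusters. The first 25% of the length held 47.4% ± 1.17 of the tags and the last 25% held 14.7% ± 0.736, and the 2 values lay further apart than the SDs of either.

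The number of clusters varied less than the tags. Over the 17 full windows of 50 kb it ranged from 87 to 264, a ratio of 3.03, while the tags ranged from 1101 to 16124, a ratio of 14.6. The median cluster held 38 tags at 100 to 150 kb and 8 tags at 400 to 500 kb. Clusters were also longer where tags were many, with a median of 136 nt at 100 to 150 kb and 73.5 nt at 800 to 850 kb. The window at 750 to 800 kb had the most clusters of all, 264, at a median of 16 tags.

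**Figure D3:**
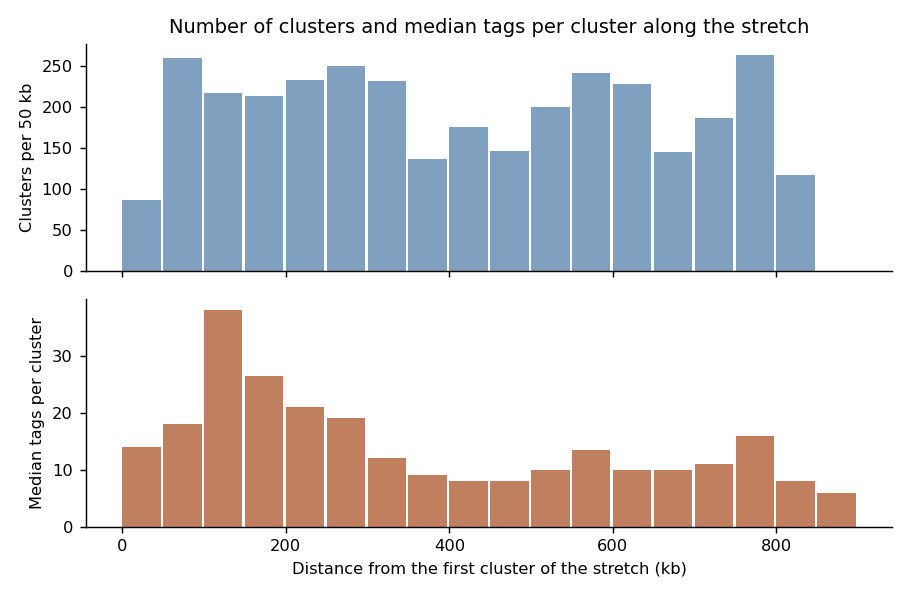
Number of clusters (upper) and median tags per cluster by the authors' total (lower) in windows of 50 kb along the stretch, against distance from the first cluster in kb. Cluster number stayed between 87 and 264 in the full windows, while the median fell from 38 tags at 100 to 150 kb to 8 tags at 400 to 500 kb. The last window ends with the stretch and holds 1 cluster.

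Clusters were packed closely. The median gap between neighbours was 35 nt, 55.8% of the 3339 gaps were under 50 nt, and 98.0% were under 1 kb. Neighbours overlapped in 250 cases, by no more than 2 nt. When neighbours separated by at most 50 nt were joined, 1450 segments resulted, with a median length of 150 nt. The longest was 11.4 kb long, at 28799179 to 28810559, and joined 33 clusters with 1236 tags in replicate 1 and 4694 in replicate 2, or 6.93% of the tags of the stretch. The next longest was 4.29 kb. At a joining distance of 1 kb, the 6 segments with the most tags took up 48.5% of the stretch and held 82.0% of its tags. The largest of these ran for 142 kb from 28720031 to 28862330 and held 6869 and 25937 tags. The other 5 were between 24.1 and 70.9 kb long.

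Of the 5 widest gaps, all but one lay beyond 700 kb. The last cluster, at 29544499 to 29544548 with 1 and 5 tags, was separated from the one before it by 18.1 kb. A gap of 9.06 kb followed position 29496974 and another of 6.35 kb followed 29393455. No more than 5 gaps reached 5 kb. The first cluster, at 28680795 to 28680954, had 9 and 18 tags, so both ends of the stretch were formed by clusters with few tags.

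The clusters with the most tags were then described one by one. The largest lay at 28806509 to 28808156, 126 kb from the start and 1647 nt long, with 269 tags in replicate 1 and 936 in replicate 2. That was 0.269 ± 0.000734 per 1000 tags (SD, n = 2), and by the authors' total of 1204 tags it ranked first among all deep intergenic clusters and at 151 in the whole table. The longest, at 28785797 to 28787602, was 1805 nt long and had 193 and 749 tags. A neighbour of the first, at 28808337 to 28809271, had 134 and 451 tags. These 3 lay between 105 and 128 kb from the start, and replicate 1 gave between 20.5% and 22.9% of the tags of each.

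Further along, the cluster at 28878771 to 28879661 had 126 and 448 tags. A pair of clusters at 28884093 to 28885207 and 28885571 to 28886325 had 104 and 414 tags and 95 and 372 tags. The cluster at 28725600 to 28726455, the earliest of the 10 with the most tags, had 93 and 318. All 10 lay between 44.8 and 205 kb from the start, and 5 of them between 100 and 130 kb. The 10 were 754 to 1805 nt long and together held 7.24% of the tags of the stretch, so no single cluster carried it. The remaining members of the 10 were clusters starting at 28800941, 28829729 and 28802859, with 542, 509 and 410 tags by the authors' total.

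The whole range of cluster sizes was represented. Of the 3340 clusters, 283 had 5 tags, the lowest total in the table, and 1180 had 5 to 9 tags. There were 1444 clusters with 10 to 29 tags, 600 with 30 to 99 and 116 with 100 or more. That last class, 3.47% of the clusters, held 27.5% of the tags. The median cluster held 13 tags, 3 in replicate 1 and 11 in replicate 2, and 735 clusters rested on a single replicate 1 tag. The tenth of clusters with the most tags, 334 in number, held 45.1% of the tags by the authors' total. With clusters ranked separately in each replicate, so that the 2 sets can differ, the share was 45.2% ± 0.0608 (SD, n = 2). Lengths ran from 24 to 1805 nt with a median of 96 nt, from a 10th percentile at 51 nt up to a 90th at 227 nt. Without replicate 2, among clusters with at least 5 tags in replicate 1, the median length was 168 nt. In all, 4 clusters were longer than 1000 nt. Tags and length went together, at a rho (Spearman) of 0.773 across the clusters, which share their libraries.

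The distribution was set beside that of other classes. In the 36828 other deep intergenic clusters the median was 7 tags and 79 nt, and 33.6% reached 10 tags, against 64.7% in the stretch. Introns gave a median of 7 tags and 28.7% with at least 10 tags. In 3'UTRs the median was 13 tags and 64.4% reached 10 tags. The median density was 14.3 tags per 100 nt of cluster in the stretch, 10.2 in other deep intergenic clusters, 9.76 in introns and 15.3 in 3'UTRs. Since the stretch was chosen for its tags, these differences were not tested. Loci that are also dense in clusters are set beside it in the next paragraph. Lengths were also set side by side within classes of tags. With 5 to 9 tags the median was 66 nt in the stretch and 70.0 nt in other deep intergenic clusters. It was 103 and 106 nt with 10 to 29 tags, 190.5 and 195 nt with 30 to 99, and 418.5 and 372 nt with 100 or more, so that the stretch had the longer clusters in the highest class alone.

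Deep intergenic clusters of the same strand were joined at gaps of at most 20 kb. The ends of the chromosome 11 stretch had been set in this way, so their return is no check of them. The stretches with the next most tags were taken for comparison. One, on chromosome 3 (minus strand, 105454317 to 105646919), had 819 clusters with 11635 and 41920 tags. The other, on chromosome 2 (plus strand, 188125402 to 188353418), had 623 clusters with 4807 and 16991 tags. Neither came near the chromosome 11 stretch in length, with 193 and 228 kb. Tags per kb were 276 on chromosome 3, 94.5 on chromosome 2 and 98.5 on chromosome 11, and the share covered by clusters was 73.8%, 37.5% and 48.2%. The larger sum of the chromosome 11 stretch, 1.60 times that on chromosome 3, thus went with a greater length and a lower density. The median cluster held 29 tags on chromosome 3 and 16 on chromosome 2, against 13 on chromosome 11. At least 10 tags were reached by 84.2%, 67.9% and 64.7% of the clusters. On the other strand, 0 clusters were listed opposite the chromosome 3 stretch and 3 clusters with 29 tags opposite that on chromosome 2. The introns of EXT1, which encodes a heparan sulfate polymerase, and of ZFAND3, the genes with the most tags after NEAT1 and MALAT1, had 164 and 74.1 tags per kb with 60.7% and 46.6% covered, so the density in the stretch lay between them. The median cluster held 20 tags in EXT1 introns and 13 in ZFAND3 introns, and 75.5% and 64.2% reached 10 tags. Clusters with many tags were thus not particular to the chromosome 11 stretch.

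The split of tags between the replicates was not used by the rule and could be tested. Replicate 1 gave 21.7% of the tags of the stretch (Wilson 95% interval 21.4 to 21.9), 22.3% of the tags of all clusters and 23.8% (23.6 to 23.9) of those in other deep intergenic clusters. In the stretch on chromosome 3 the share was 21.7% (21.4 to 22.1), and in that on chromosome 2 it was 22.1% (21.5 to 22.6). EXT1 and ZFAND3 introns had 19.7% and 21.1%. The intervals cover counting error only. Each cluster was tested against the share over all clusters by a two-sided exact binomial test with Benjamini-Hochberg adjustment over all 233546 clusters, which compares the libraries and not conditions. Of all clusters 26 passed, or 0.0111%. Of the 3340 clusters of the stretch, 0 passed by this test, and 0 by a beta-binomial test that allows for extra spread, by which 11 of all clusters passed, or 0.00471%. At an unadjusted p under 0.05 there were 120 in the exact test, or 3.59%, against 3.04% of all clusters, and 59 in the beta-binomial test, or 1.77%, against 1.44%. With only clusters of at least 30 tags tested, there were 47 of 716, or 6.56%, against 1614 of 22118, or 7.30%. The share was thus lower in the stretch in that setting and higher in the others. Of the 120, replicate 1 was higher than its share in 76 and lower in 44. This direction turned with the setting, to 51 higher and 61 lower when the share of deep intergenic clusters was expected, and to 16 higher and 31 lower among clusters of at least 30 tags. It was 105 and 26 with the share of clusters of at least 100 tags, and 32 and 27 in the beta-binomial test. A call towards replicate 2 needed at least 64 tags, which 245 clusters of the stretch had, and a call towards replicate 1 at least 11 tags, which 2046 had. Most clusters of the stretch were therefore too small for a call in one of the directions.

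**Figure D4:**
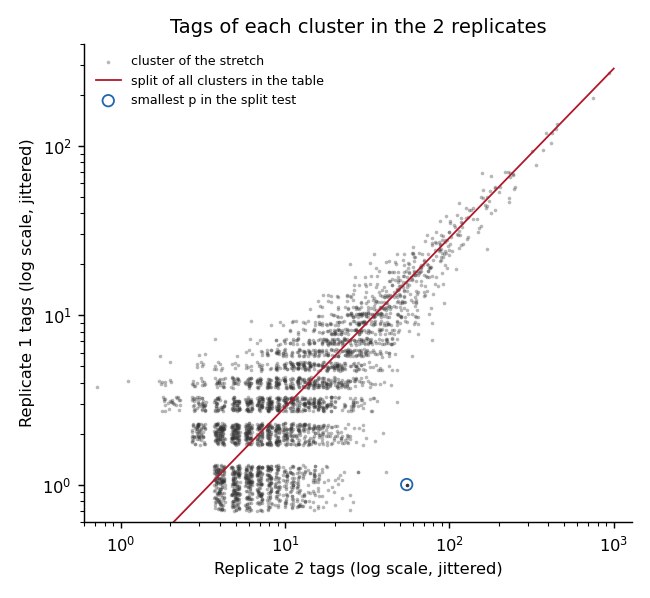
Replicate 1 against replicate 2 tags of the 3340 clusters of the stretch, both on log scales with small random offsets, with the split of all clusters in the table as a red line. The ringed cluster, with 1 and 55 tags, had the smallest p in the split test (adjusted p = 0.178, exact binomial test).

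The smallest p in the stretch belonged to the cluster at 28833025 to 28833150, with 1 tag in replicate 1 and 55 in replicate 2 (exact binomial test, p = 2.97e-05, adjusted p = 0.178). Its call depended on the setting. It passed when the share of deep intergenic clusters was expected (exact binomial test, adjusted p = 0.0363), where 64 of all 233546 clusters passed, or 0.0274%. It also passed when only clusters with at least 30 tags were tested (exact binomial test, adjusted p = 0.0188), where 50 of 22118 passed, or 0.226%. The adjusted p was between 0.178 and 0.641 in the other settings of the exact and beta-binomial tests. The second smallest p was 159 nt further on, at 28833309 to 28833464, with 1 and 41 tags (exact binomial test, p = 0.000586, adjusted p = 0.924). The cluster between them had 7 and 32 tags, and those on either side had 10 and 35 and 6 and 24 tags. In these 3 neighbours the replicate 1 share was 17.9% to 22.2%. This place was singled out after its values were seen.

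Across the clusters of the stretch, Spearman's rho between replicates was 0.675 and Pearson's r of log2(tags + 1) was 0.795. In the 716 clusters with at least 30 tags rho was 0.712, and it was 0.717 in other deep intergenic clusters of that size. Higher values were found in the stretches on chromosome 3 (0.878) and chromosome 2 (0.865), EXT1 introns (0.852), 3'UTRs (0.829) and all clusters (0.764). Lower ones were found in introns (0.589) and in ZFAND3 introns alone (0.490). Over all sizes the rho of other deep intergenic clusters was 0.306, in which far fewer clusters reached 10 tags. It was 0.894 in the chromosome 3 stretch and 0.806 in that on chromosome 2.

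The replicate 1 share changed with the number of tags, and was therefore compared within classes of tags. In clusters of 5 to 9 tags it was 26.7% in the stretch (Wilson 95% interval 25.7 to 27.6) and 27.4% (27.2 to 27.6) in other deep intergenic clusters. With 10 to 29 tags it was 21.1% (20.6 to 21.6) and 22.2% (21.97 to 22.4), and with 30 to 99 tags 20.7% (20.3 to 21.2) and 21.3% (21.1 to 21.6). With 100 or more tags the values were 21.6% (21.1 to 22.2) and 21.7% (21.4 to 21.99). The intervals overlapped in all classes but that of 10 to 29 tags. In that class introns had 22.1% (21.99 to 22.3) and 3'UTRs 21.3% (21.2 to 21.5). In the class of 100 or more tags, the shares of 3'UTRs, 20.7% (20.6 to 20.8), and introns, 20.4% (20.1 to 20.7), were below that of the stretch. Every listed cluster had at least 1 replicate 1 tag, and in small clusters that minimum raises the share by construction.

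**Figure D5:**
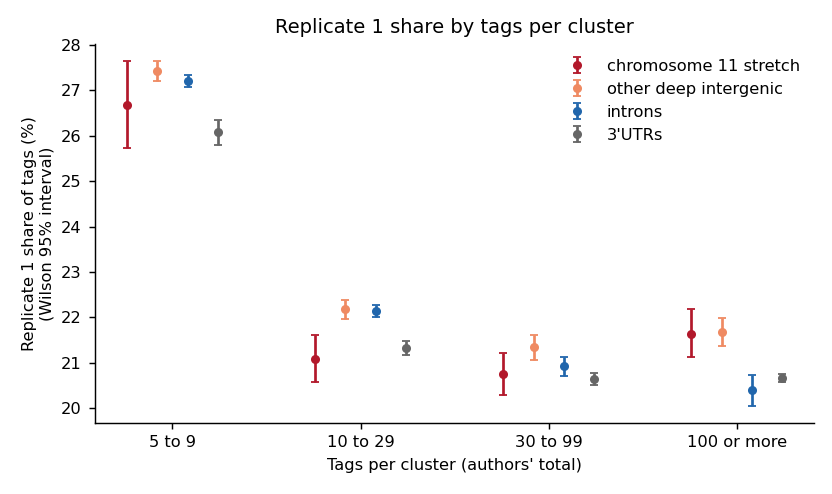
Replicate 1 share of tags in percent, by tags per cluster (authors' total), for the stretch (red), other deep intergenic clusters (orange), introns (blue) and 3'UTRs (grey), with Wilson 95% intervals. The share was 26.7% in the smallest clusters of the stretch and 20.7% to 21.6% in the larger classes. The vertical axis does not start at 0.

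Along the stretch, the share ranged from 20.2% at 50 to 100 kb to 24.6% at 800 to 850 kb over the full windows of 50 kb. It was 21.2% (Wilson 95% interval 20.9 to 21.6) up to the midpoint and 22.6% (22.1 to 23.1) beyond it. The median was 17 tags per cluster in the first part and 11 in the second, and the part of cluster size in this difference was not tested. In 12 of the 17 windows the interval held the share of the whole stretch.

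In 689 clusters of the stretch the tags of both replicates came to more than the total listed by the authors, 20.6% of them, by 1051 tags in all. In other deep intergenic clusters this was so for 11.9%, and in 3'UTRs for 19.4%. It was so for 25.9% and 23.9% in the stretches on chromosomes 3 and 2, and for 22.8% and 19.2% in EXT1 and ZFAND3 introns. Without such clusters, the stretch held 14.2% of the deep intergenic tags.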

How the data were processed

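RBM47-bound RNA fragments were poly(A)-tailed, reverse transcribed with a primer that carries a degenerate barcode, and sequenced by the authors on an Illumina instrument. The authors collapsed reads to unique tags and clustered them on the Galaxy platform. The submitters' processing notes name Novoalign and hg18. The settings were not given in the sources used here. The deposited values are raw counts of tags per cluster for each replicate, with the authors' total. Every cluster has at least 1 tag per replicate and 5 in total, so column sums are not library depths. Since 793 clusters, on 2 chromosomes, end beyond the chromosome in GRCh37, no reference coordinate or sequence was used. RefSeq served for gene names and order only. Positions are as deposited, and whether they count from 0 or 1 is not known.

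Length is end minus start. Cover is the bases in at least 1 cluster over the span. Values per replicate are per 1000 of its tags in the table (mean ± SD, n = 2). The labels do not say whether the replicates came from separate cultures. Splits were tested with SciPy 1.17.1 and pandas 2.3.3, and the test was tested on simulated data. Changes were simulated only in clusters with at least 100 tags over both replicates. The simulation therefore does not show how often a change in smaller clusters would be found. The stretch, the lists of clusters and the tests were chosen with earlier results of these data known. Clusters named were the 10 with the most tags, the ends, the longest, the widest gaps, the nearest clusters outside, and calls of the split test. Of 233546 clusters, those of the stretch are described in full and others as a scale.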

Additional observations from a re-analysis of the deposited data

How the results depend on the processing

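Of 42 alternatives, 24 stayed within the limits and 18 moved the value. The 24 include joining clusters at gaps of at most 20 kb and of at most 50 kb, which could not change the share of deep intergenic tags. The first is how the ends were set, and the nearest deep intergenic clusters on that strand lay 171 and 867 kb away. A value counted as moved when it left its SD over the replicates, its 95% interval for the correlation between replicates and the replicate 1 share, or its count. Where a replicate was left out, that SD came from the very values judged, and the main value lay closer to the deeper replicate 2. Those labels are therefore largely built in. The plus strand share of tags, 100%, could not change in another 5, which only drop clusters or change the column of tags. With only clusters of at least 10 tags, the stretch held 20.4% of the deep intergenic tags against 15.7%, 73.1% of its tags lay before the midpoint against 70.3%, the median was 20 tags, the top 10% of clusters held 40.8%, and the replicate 1 share was 21.1%. When clusters were kept only if both replicates added up to the authors' total, these shares of tags were 14.2%, 67.9% and, for the top 10%, 43.5%. With the sum of the replicate columns, the top 10% held 44.8%. The Spearman correlation between replicates was 0.712 in clusters of at least 30 tags, against 0.675 in all. The number of clusters with a different split was 1, not 0, with the deep intergenic share expected, where 64 of 233546 clusters passed, and with clusters of at least 30 tags, where 50 of 22118 passed.

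With each replicate left out, the share of deep intergenic tags ranged from 14.5% to 16.04%, the share before the midpoint from 68.8% to 70.5%, the share of the top 10% from 45.1% to 45.2%, the median from 3 to 11 tags, the median length from 105 to 168 nt and the cover from 25.6% to 44.8%. For length and cover, clusters were kept if the remaining replicate alone had at least 5 tags, and the longer median and lower cover came without replicate 2. The top 10% was ranked by the remaining replicate. Leaving out the isolated last cluster, an alternative chosen after seeing the data, gave a cover of 49.2% and 69.9% before the midpoint. No paired analysis was possible because the data used here hold a single group. The depth of replicate 1, with a median of 3 tags per cluster of the stretch, limits the precision of any one cluster's split.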
